A study of Mus musculus with 12 samples.

Results

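The zinc by dexamethasone interaction was measured in the livers of 12 female C57BL/6J mice, 1 library per mouse and 3 mice in each of 4 groups. For 7 days the drinking water of the zinc mice held 25 mM ZnSO4, while the water mice had none added. They were next given either PBS or, as a synthetic glucocorticoid, 200 µg of dexamethasone (Dex) intraperitoneally, and livers were collected 2 h after that. No group carried a genetic change, all animals were adult females, and the groups are named water-PBS, water-Dex, zinc-PBS and zinc-Dex. The interaction is the zinc effect in Dex mice minus the zinc effect in PBS mice, that is (zinc-Dex minus water-Dex) minus (zinc-PBS minus water-PBS). It was computed for each of the 13255 genes, of 54838 in the table, that had at least 10 counts in at least 3 libraries, with all 12 libraries of the series in the fit. A positive value means that zinc moved a gene further upwards, or less far downwards, in Dex mice than in PBS mice.

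The answer depends on the scale. On the log2 scale an interaction of 0 means that the fold changes of zinc and Dex multiplied, and a gene was called where its value lay more than 0.8 from 0 and its adjusted p from DESeq2 was below 0.05. On the count scale 0 means that the read counts gained or lost with each agent added up, and a gene was called where the adjusted p of that difference was below 0.05. Levels are normalized read counts, given as mean ± SD with n = 3 mice per group. The labels describe the samples of a group as biological replicates.

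Zinc and glucocorticoids act on the liver through separate transcription factors. Excess zinc ions bind MTF1, a zinc-finger factor, which then occupies metal response elements and drives the metallothioneins, small cysteine-rich proteins that bind zinc and copper, and the zinc exporter gene *Slc30a1*. Dex binds the glucocorticoid receptor, which occupies glucocorticoid response elements and drives genes of gluconeogenesis and amino acid breakdown, and lowers many inflammatory genes. Metallothionein genes are known targets of both pathways.

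The promoters of *Mt1* and *Mt2* are shown because these genes had the lowest interaction values among called genes and sit side by side on chromosome 8. The 250 bases before each transcription start are from RefSeq on GRCm38.p6, both on the plus strand, at chr8:94178839-94179088 for *Mt1* and chr8:94172368-94172617 for *Mt2*. Capitals mark the metal response element core (TGCACNC or TGCGCNC) and the glucocorticoid response element (GNACA and TGTNC with 3 bases between them), each searched on both strands.
Mt1: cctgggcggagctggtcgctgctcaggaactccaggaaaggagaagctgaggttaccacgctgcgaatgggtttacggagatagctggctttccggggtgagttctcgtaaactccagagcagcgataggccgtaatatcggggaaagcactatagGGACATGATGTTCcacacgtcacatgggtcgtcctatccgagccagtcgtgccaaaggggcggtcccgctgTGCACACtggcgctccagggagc
Mt2: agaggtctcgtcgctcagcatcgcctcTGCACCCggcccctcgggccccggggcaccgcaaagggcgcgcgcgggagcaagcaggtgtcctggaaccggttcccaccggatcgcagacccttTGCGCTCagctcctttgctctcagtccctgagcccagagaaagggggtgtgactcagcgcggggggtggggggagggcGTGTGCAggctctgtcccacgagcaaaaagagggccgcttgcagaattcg
In the window of 300 bases that also holds the first 50 bases of the transcript, *Mt1* had 3 metal response cores and 1 glucocorticoid response element, and *Mt2* had 4 metal response cores and 0 glucocorticoid response elements. Of 32851 RefSeq promoters of that length, 25.7% held at least 1 metal response core, 7.11% at least 2 and 0.517% at least 4, and 0.475% held the glucocorticoid response element. These matches are a description of letters and were not tested for binding.

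Few genes passed the test on either scale. Of 13250 genes with a p-value, 6 were called on the log scale (0.0453%) and 5 on the count scale (0.0377%), and 2 of them, *Mup-ps13* and *Phlda1*, were called on both. The log-scale calls were *Mt1*, *Mt2*, *Phlda1* and *Mup-ps13* with negative values and *Slc25a25* and *Fam198a* with positive values. The count-scale calls were *Amacr* with a positive value and *Mup-ps13*, *Phlda1*, *Cd9* and *Zeb1* with negative values. At an unadjusted p under 0.05 there were 460 genes (3.47%) on the log scale, 252 positive (1.9%) and 208 negative (1.57%), and 478 genes (3.61%) on the count scale, 274 positive (2.07%) and 204 negative (1.54%). Leaving out single libraries moved the number of log-scale calls to 10 without any 1 of the zinc-PBS replicates or water-Dex replicate 3 and to 22 without zinc-Dex replicate 2. It fell to 4 without water-Dex replicate 1 or 2 or zinc-Dex replicate 1, and to 5 without water-PBS replicate 2. On the count scale it moved to 15 without water-Dex replicate 3, 12 without zinc-PBS replicate 1, 10 without zinc-Dex replicate 2, 8 without zinc-PBS replicate 2, and to 3 when replicate 1 or 3 of water-PBS, replicate 3 of zinc-PBS or replicate 1 or 2 of water-Dex was left out. The middle of the distribution was close to 0, with a median log2 interaction of 0.0099, a 5th percentile of -0.51 and a 95th percentile of 0.57. The median standard error was 0.240, so the typical 95% interval reached 0.471 to either side, and the interval lay inside -1 to 1 for 9502 genes (71.7%). For the other genes the interval reached past a 2-fold interaction in at least 1 direction. The sign differed between the scales in 646 genes (4.88%), of which 0 had an unadjusted p under 0.05 on both.

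**Figure D1:**
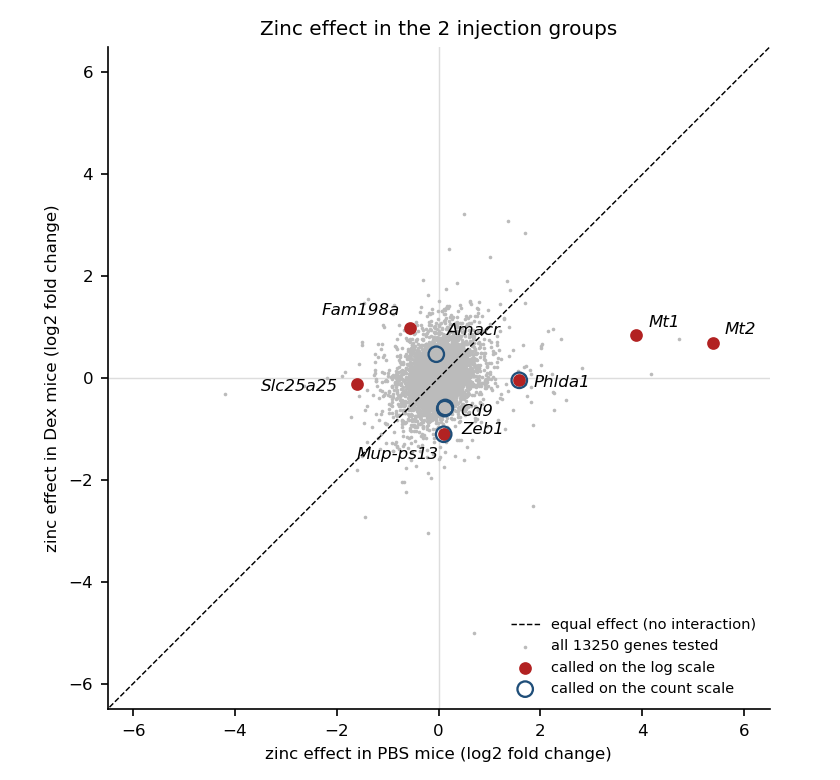
Zinc effect in Dex mice (vertical axis) against the zinc effect in PBS mice (horizontal axis), both as log2 fold changes, for the 13250 genes tested (grey points). The dashed line marks equal effects, red points are the 6 genes called on the log scale, and blue rings are the 5 genes called on the count scale. Mt1 and Mt2 lie far to the right, at 3.87 and 5.38 in PBS mice against 0.85 and 0.69 in Dex mice.

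For most genes with a zinc effect called in 1 injection group, the difference between the injection groups did not pass the test. Zinc effects were called in 17 genes in PBS mice (0.128%) and in 60 genes in Dex mice (0.453%), 5 of them in both (*Mt1*, *Slc39a4*, *Dsg1c*, *Slc43a1* and *Tubb2a*). Of the 12 genes called in PBS mice alone, 3 had a called interaction, *Mt2*, *Phlda1* and *Slc25a25*. Of the 55 genes called in Dex mice alone, 2 had one, *Fam198a* and *Mup-ps13*. *Dsg1c*, *Slc43a1* and *Tubb2a*, like every gene named below only because it makes up a small count, were chosen after their values were seen. Dex effects were called in 1383 genes in water mice (10.4%) and in 1480 in zinc mice (11.2%).

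The metallothioneins came first. *Mt1* and *Mt2* encode the metallothionein isoforms of liver, which hold and buffer zinc. Zinc raised both genes in PBS mice, Dex raised both in water and in zinc mice, and the zinc-Dex level was far below the product of the single folds. *Mt1* (ENSMUSG00000031765, chromosome 8, 94179082 to 94180327, mm10) had 210, 403 and 437 normalized counts in water-PBS and 6233, 3437 and 5684 in zinc-PBS. It had 7587, 7590 and 7489 in water-Dex mice and 15103, 13303 and 12372 in zinc-Dex. The groups did not overlap, with water-PBS lowest, then zinc-PBS, then water-Dex, and zinc-Dex highest. Zinc raised *Mt1* by log2 3.87 (SE 0.229) in PBS mice and by 0.85 (SE 0.224) in Dex mice, and the interaction was -3.02 (SE 0.320, 95% interval -3.65 to -2.39, DESeq2 adjusted p = 5.1e-17). On the count scale the zinc gain was 4768 counts in PBS mice and 6037 in Dex mice, a difference of 1269 (SE 1800, 95% interval -2259 to 4797, adjusted p = 1.0). If the gains added, the zinc-Dex level would be 12324, and if the folds multiplied, 110492. The observed mean of 13593 ± 1388 was 1.1 times the former and 0.123 times the latter.

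*Mt2* (ENSMUSG00000031762, chromosome 8, 94172664 to 94173568) had the same order of groups. Its counts were 13.7, 44.7 and 25.4 in water-PBS and 1417, 702 and 1395 in zinc-PBS. They were 2438, 2234 and 2518 in water-Dex mice and 4249, 3886 and 3497 in zinc-Dex, and again no neighbouring groups overlapped. The zinc effect was log2 5.38 (SE 0.379) in PBS mice and 0.69 (SE 0.344, DESeq2 adjusted p = 0.470) in Dex mice, an interaction of -4.68 (SE 0.511, 95% interval -5.69 to -3.68, DESeq2 adjusted p = 3.4e-16). On the count scale the difference was 337 (SE 793, 95% interval -1217 to 1891, adjusted p = 1.0), with an observed mean of 3877 ± 376 against 3540 for addition and 100528 for multiplication. That interval reaches past the zinc gain in PBS mice itself, which was 1143 counts. *Gm45774*, annotated on the opposite strand over *Mt2*, was at 0 to 2.1 counts in water-PBS, 9.64 to 31.7 in zinc-PBS, 25.4 to 33.0 in water-Dex mice and 42.4 to 56.8 in zinc-Dex, the same order as *Mt2*, and whether reads were split between them by strand is not given in the sources used here. The log-scale calls of *Mt1* and *Mt2* held in each of the 17 alternative fits.

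**Figure D2:**
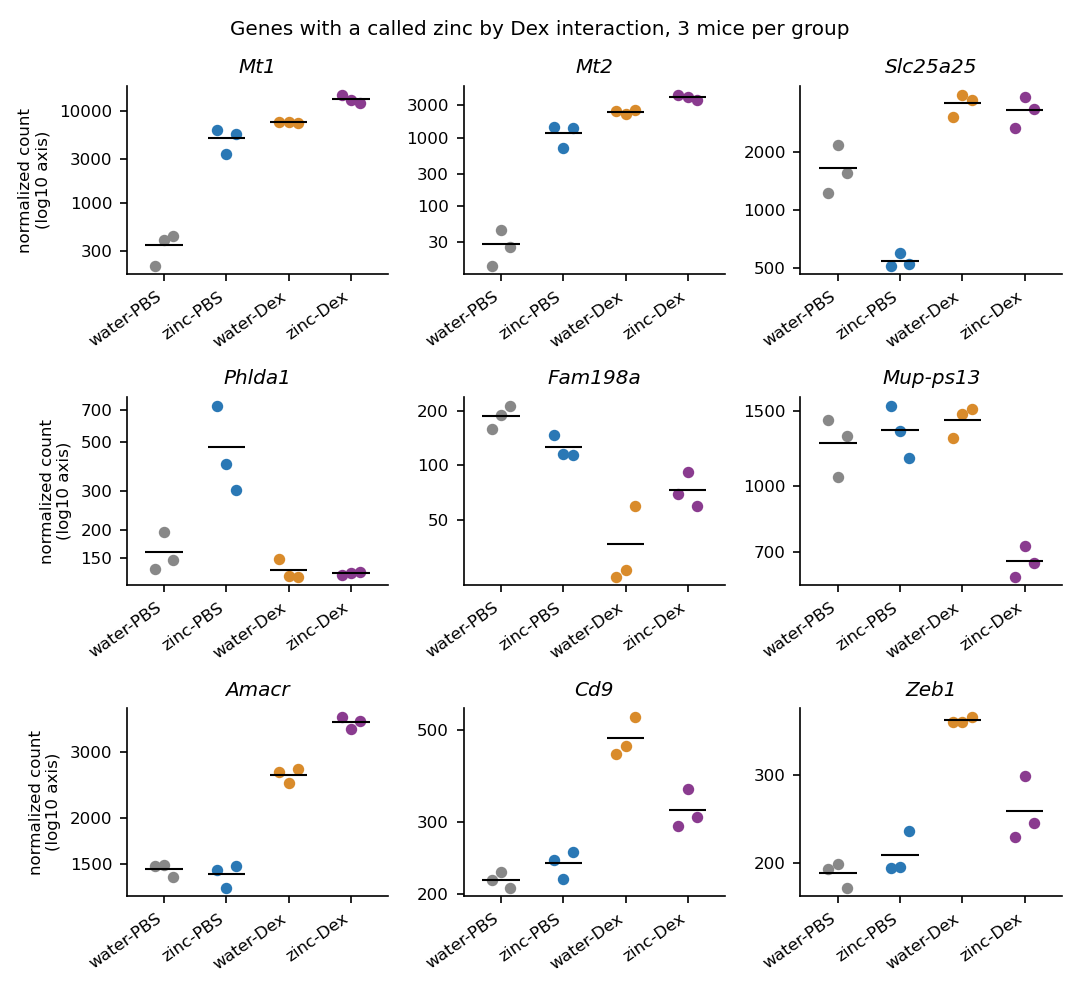
Normalized counts (log10 axis) of the 9 genes called on either scale in each of the 12 mice, by group, with a bar at the mean of 3 mice. Mt1 and Mt2 rise from water-PBS to zinc-PBS, water-Dex and zinc-Dex, Phlda1 stands apart in zinc-PBS alone, and Mup-ps13 in zinc-Dex alone.

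None of the other genes of zinc handling tested had a called interaction on either scale. Of 10 listed metallothionein and metal-response genes 9 were tested, 2 of which were called, and the median interaction of the list was -0.066 (0.0099 over all genes). *Slc30a2* did not pass the count filter. *Slc30a1*, which encodes the exporter ZnT1 at the cell surface, had 459, 551 and 661 counts in water-PBS, 860, 869 and 990 in zinc-PBS, 239, 251 and 230 in water-Dex mice and 446, 426 and 396 in zinc-Dex. Within each injection group zinc mice lay above water mice, and with either water Dex mice lay below PBS mice, without overlap. The zinc effect was log2 0.70 (SE 0.127) in PBS mice and 0.82 (SE 0.138) in Dex mice, and the interaction was 0.11 (95% interval -0.25 to 0.48). For this gene the observed mean, 423 ± 25.1, was 1.08 times the product of the folds and 0.717 times the sum of the changes (count-scale difference -167, SE 73.4, unadjusted p = 0.0233). *Mt1* came closer to the sum and *Slc30a1* closer to the product, a comparison of values with no test.

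*Slc39a4*, the gene of the importer ZIP4, fell with zinc in both injection groups, by log2 -1.50 in PBS and -1.54 in Dex mice. Its counts were 749, 693 and 564 in water-PBS, 215, 235 and 259 in zinc-PBS, 550, 587 and 734 in water-Dex mice and 186, 211 and 245 in zinc-Dex. Every zinc mouse was below every water mouse, and the interaction was -0.04 (SE 0.219, 95% interval -0.47 to 0.39). *Slc30a10*, a manganese exporter gene, had an interaction of -0.34 (SE 0.226), with means of 775 and 565 without and with zinc in PBS mice and 635 and 366 in Dex mice. *Slc39a14*, which encodes the importer ZIP14, had -0.02 (SE 0.173), *Mtf1* itself -0.07 (SE 0.178), *Slc39a10* 0.33 (SE 0.365) and *Agtpbp1*, a carboxypeptidase gene, -0.33 (SE 0.262), none of them called. Among 19 zinc transporter genes tested of 24 listed, 0 were called by DESeq2 or edgeR, and 0 had a positive and 2 a negative interaction at an unadjusted DESeq2 p under 0.05 (1.57% of all genes), *Slc39a1* (-0.29, SE 0.138) and *Slc30a9* (-0.21, SE 0.106). The intervals of 16 of the 19 lay inside -1 to 1.

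*Slc25a25* had a positive interaction. It encodes a calcium-regulated carrier that moves ATP-magnesium and phosphate across the inner mitochondrial membrane. The gene (ENSMUSG00000026819, chromosome 2, 32414487 to 32451445, minus strand) had 1221, 2172 and 1547 counts in water-PBS, 512, 597 and 523 in zinc-PBS, 3042, 3968 and 3732 in water-Dex mice and 2645, 3868 and 3356 in zinc-Dex. Zinc-PBS mice were below all others, while the Dex groups overlapped. Zinc lowered the gene by log2 -1.60 (SE 0.191) in PBS mice and changed it by -0.12 (SE 0.188) in Dex mice, an interaction of 1.48 (SE 0.267, 95% interval 0.95 to 2.00, DESeq2 adjusted p = 0.000113). Read the other way, Dex raised it by 1.12 (SE 0.188) in water mice and by 2.60 (SE 0.190) in zinc mice. On the count scale the difference was 812 (SE 475, adjusted p = 1.0), since the mean fell by 1103 counts with zinc in PBS mice and fell by 291 counts in Dex mice. The log-scale call was lost under edgeR (adjusted p = 0.181) and held in the other 16 of 17 alternatives, and *Naif1* overlaps the gene on the opposite strand.

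Most other mitochondrial carrier genes had small positive values. Of 41 Slc25 genes tested, *Slc25a25* included, 30 had a positive and 11 a negative interaction, with a median of 0.10 (0.0099 over all genes, range over alternatives 0.058 to 0.138). At an unadjusted p under 0.05 there were 3 positive and 0 negative, or 7.32% of the list against 3.47% of all genes. They were *Slc25a25*, the gene already called above, *Slc25a51* (0.45, SE 0.199), a mitochondrial NAD carrier gene, and *Slc25a42* (0.45, SE 0.206), a coenzyme A carrier gene. The number at that p ranged from 1, with replicate 3 of water-PBS or replicate 1 of water-Dex left out, to 5, with replicate 1 of water-PBS or of zinc-PBS left out. In 7 of the 41 genes the 3 zinc-Dex mice lay above the other 9 mice, against 3.55% of all genes. The same held for 5 of 18 glucocorticoid receptor targets and 4 of 15 targets of the receptors CAR and PXR. A gene raised by Dex needs only its Dex groups apart for this, so the share of all genes is not a like baseline. The position alone does not measure an interaction. Averaged over water and zinc, Dex was called in 17 of these 18, 5 of these 15 and 6 of the 41 genes.

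In *Phlda1* the zinc-PBS group stood apart. *Phlda1*, a pleckstrin homology-like domain gene induced by growth factor and stress signals, had 134, 196 and 148 counts in water-PBS and 732, 399 and 304 in zinc-PBS. It had 149, 124 and 124 in water-Dex mice and 126, 129 and 130 in zinc-Dex. All zinc-PBS mice were above the other 9 mice, and the Dex groups overlapped with each other. The gene (ENSMUSG00000020205, chromosome 10, 111506286 to 111508645) rose with zinc by log2 1.58 (SE 0.255) in PBS mice and changed by -0.04 (SE 0.265) in Dex mice, an interaction of -1.63 (SE 0.368, DESeq2 adjusted p = 0.0210). The count-scale difference was -323 (SE 66.2, 95% interval -453 to -193, adjusted p = 0.00474), so the zinc-Dex level of 128 ± 1.91 lay below both the sum (451) and the product (397). Without zinc-PBS replicate 1, the highest library, the values were -1.18 (adjusted p = 0.0148) and -194 (adjusted p = 0.00927). The count-scale call held in all 18 alternatives, and the log-scale call was lost in 7 of 17, under edgeR (adjusted p = 0.551) and when replicate 1 or 3 of water-PBS, replicate 1 or 2 of water-Dex, or replicate 1 or 3 of zinc-Dex was left out (adjusted p from 0.0576 to 0.213).

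*Klf13*, a Krüppel-like transcription factor gene, was higher with zinc in PBS mice but not in Dex mice in its means, and its interaction was not called. Its means were 480 ± 75.8 in water-PBS, 820 ± 162 in zinc-PBS, 983 ± 58.9 in water-Dex mice and 948 ± 110 in zinc-Dex. Zinc-PBS mice were above water-PBS mice and overlapped with zinc-Dex mice, and the interaction was -0.82 (SE 0.216, DESeq2 adjusted p = 0.122). The 12 genes of the MAPK feedback and Phlda list had a median of 0.13, with *Phlda1* the 1 member at an unadjusted p under 0.05. Its relative *Phlda3* had a value of the opposite sign, 1.06 (SE 0.610).

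In *Fam198a* the zinc effect had opposite signs in the injection groups. This gene of a Golgi-associated protein (ENSMUSG00000038233, chromosome 9, 121950988 to 121980209, Gask1a in RefSeq) had 158, 189 and 213 counts in water-PBS and 148, 116 and 113 in zinc-PBS. It had 24.3, 26.6 and 59.4 in water-Dex mice and 69.6, 91.3 and 59.6 in zinc-Dex. Zinc mice were below water mice with PBS and above them with Dex, without overlap, though water-Dex replicate 3 and zinc-Dex replicate 3 were almost level. The zinc effect was log2 -0.57 (SE 0.242) in PBS mice and 0.99 (SE 0.281) in Dex mice, an interaction of 1.56 (SE 0.371, DESeq2 adjusted p = 0.0491). The count-scale difference, 97.8 (SE 28.8, adjusted p = 0.419), was not called, and the log-scale call was lost in 11 of 17 alternatives. Without water-Dex replicate 3 the values were 2.10 (adjusted p = 1.2e-05) and 109 counts (adjusted p = 0.00892).

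*Amacr* was the 1 gene called on the count scale whose zinc-Dex level exceeded the sum of the single changes. It encodes alpha-methylacyl-CoA racemase, which prepares branched-chain fatty acids and bile acid intermediates for oxidation in peroxisomes and mitochondria. The gene (ENSMUSG00000022244, chromosome 15, 10981756 to 10996626) had 1482, 1497 and 1391 counts in water-PBS, 1450, 1299 and 1485 in zinc-PBS, 2660, 2473 and 2694 in water-Dex mice and 3735, 3456 and 3634 in zinc-Dex. The PBS groups overlapped, whereas every zinc-Dex mouse was above every water-Dex mouse. The count-scale difference was 1045 (SE 186, 95% interval 679 to 1410, adjusted p = 0.00027), and on the log scale the interaction was 0.51 (SE 0.111, DESeq2 adjusted p = 0.0104), under the threshold of 0.8. The observed 3608 ± 141 was 1.41 times the sum and 1.43 times the product. The count-scale call held in all 18 alternatives.

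*Ces2a*, a carboxylesterase gene of lipid hydrolysis, had a log2 interaction of 0.49 (SE 0.118, DESeq2 adjusted p = 0.0491), likewise under the threshold. Its means were 2935 ± 11.8 in water-PBS, 2266 ± 174 in zinc-PBS, 4209 ± 340 in water-Dex mice and 4576 ± 159 in zinc-Dex. Zinc-PBS mice were below water-PBS mice, and the Dex groups overlapped. These 2 genes brought the number with an adjusted p under 0.05 and no fold threshold to 8 (0.0604%).

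*Cd9* and *Zeb1* had the reverse shape, with a Dex increase that was smaller in zinc mice. *Cd9*, a tetraspanin gene (ENSMUSG00000030342, chromosome 6, 125460266 to 125494791, minus strand), had 217, 226 and 208 counts in water-PBS, 243, 218 and 253 in zinc-PBS, 437, 457 and 538 in water-Dex mice and 293, 361 and 308 in zinc-Dex. Its count-scale difference was -178 (SE 40.5, adjusted p = 0.0350) and its log2 interaction -0.71 (SE 0.182, adjusted p = 0.103). *Zeb1*, the gene of a zinc-finger repressor (ENSMUSG00000024238, chromosome 18, 5591860 to 5775467), had 195, 200 and 179 counts in water-PBS, 196, 196 and 232 in zinc-PBS, 382, 383 and 392 in water-Dex mice and 225, 298 and 240 in zinc-Dex. In both genes zinc-Dex mice were below water-Dex mice and the PBS groups overlapped. The count-scale difference of *Zeb1* was -148 (SE 34.2, adjusted p = 0.0408) and the log2 interaction -0.72 (SE 0.186, adjusted p = 0.113). Each of these count-scale calls was lost in 12 of 18 alternatives, and both genes have genes annotated on the opposite strand.

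**Figure D3:**
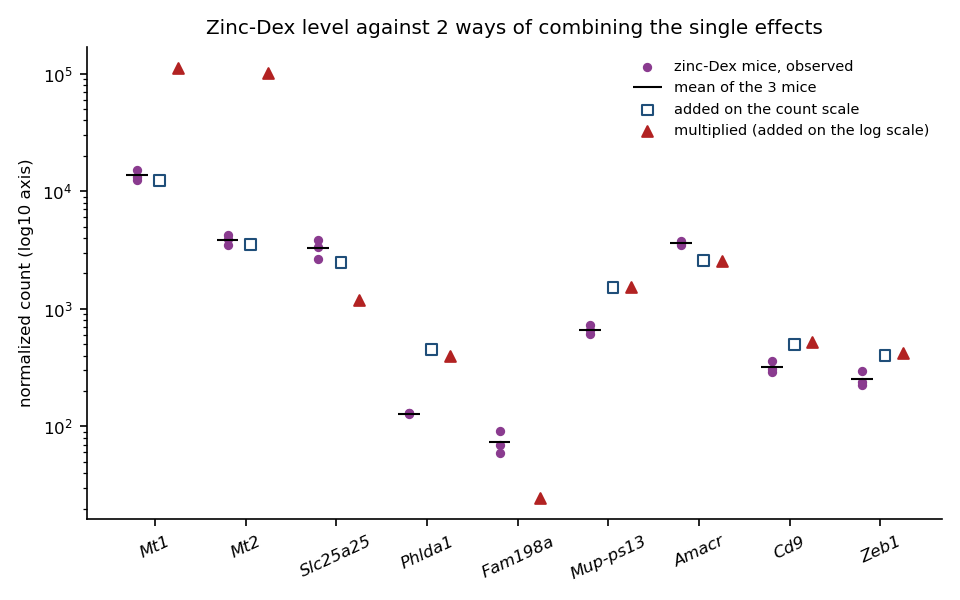
Observed zinc-Dex levels of the 9 called genes (purple points, 3 mice, bar at the mean) beside the level reached if the count changes of zinc and Dex added (open squares) and if their folds multiplied (red triangles), on a log10 axis of normalized counts. For Mt1 the observed 13593 lies at the square (12324) and far below the triangle (110492), and the sum for Fam198a was below 0 and is not drawn.

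*Mup-ps13* was called on both scales, and most other major urinary protein (Mup) genes had negative values too. The major urinary proteins are small pheromone carriers secreted by the liver under growth hormone control, and their genes form a cluster of near-identical copies on chromosome 4, so counts of single members are uncertain. *Mup-ps13* (ENSMUSG00000095532, an unprocessed pseudogene, chromosome 4, 61534230 to 61536973) had 1430, 1048 and 1313 counts in water-PBS, 1546, 1350 and 1162 in zinc-PBS, 1299, 1476 and 1518 in water-Dex mice and 613, 723 and 662 in zinc-Dex. Every zinc-Dex mouse was below the other 9 mice, and the other 3 groups overlapped. The interaction was -1.20 (SE 0.194, DESeq2 adjusted p = 2.4e-06) on the log scale and -855 counts (SE 163, adjusted p = 0.000976) on the count scale, and both calls held in every alternative. *Mup-ps22*, a processed pseudogene on chromosome 11, had a mean of 924 ± 105 in zinc-Dex and of 1369 to 1600 in the other groups, with an interaction of -0.68 (SE 0.166, adjusted p = 0.0596).

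Of 45 listed Mup genes 24 were tested, 20 with a negative and 4 with a positive interaction, and the median was -0.61. At an unadjusted p under 0.05 there were 10 negative and 1 positive, or 45.8% of the list against 3.47% of all genes, and 1 gene was called. The zinc-Dex mice lay below the other 9 mice in 8 of the 24, against 2.52% of all genes. *Mup3*, the member with the most counts, had 25055, 24281 and 32595 counts in water-PBS, 21921, 22398 and 21408 in zinc-PBS, 30734, 30627 and 25180 in water-Dex mice and 13352, 20916 and 13352 in zinc-Dex. The authors left out reads with several mappings, so counts need not rank the members by abundance. The positive member was the low-count *Mup-ps14* (2.93, SE 0.729). The median of the list stayed between -0.72 and -0.52 in every alternative. Because the members are near-identical in sequence, their counts are not independent of each other.

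Zinc-Dex replicate 2 stood apart from its group for part of these genes. The summed counts of the listed Mup genes that passed the count filter were 17592, 25155 and 17685 in zinc-Dex replicates 1 to 3, 27831 to 28928 in zinc-PBS, 30428 to 39395 in water-PBS and 32817 to 39349 in water-Dex. *Mup3* alone made up most of that sum, with 13352, 20916 and 13352 in zinc-Dex. Other members were less split or had another order, *Mup6* with 706, 826 and 700, *Mup18* with 133, 171 and 151 and *Mup11* with 89.2, 62.3 and 54.8. Some further genes, chosen after their values were seen, also had zinc-Dex replicate 2 above the rest of its group. *Slco1a1*, an organic anion transporter gene, had 218, 1568 and 222 counts in zinc-Dex against 777 to 3108 in the other 9 mice. *Hsd3b5*, a steroid dehydrogenase gene, had 1.09, 31.2 and 1.92, and *Selenbp2* 153, 425 and 195. Without zinc-Dex replicate 2 there were 22 log-scale calls, 5 of them among the original 6, and the interaction was -3.26 (adjusted p = 0.00209) for *Slco1a1*, -4.74 (adjusted p = 0.0126) for *Hsd3b5* and 1.74 (adjusted p = 0.00209) for the retinoic acid hydroxylase gene *Cyp26a1*. With that library in the fit their values were -1.66, -1.85 and 1.44 with an adjusted p of 1.0 each. What set this mouse apart was not tested.

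**Figure D4:**
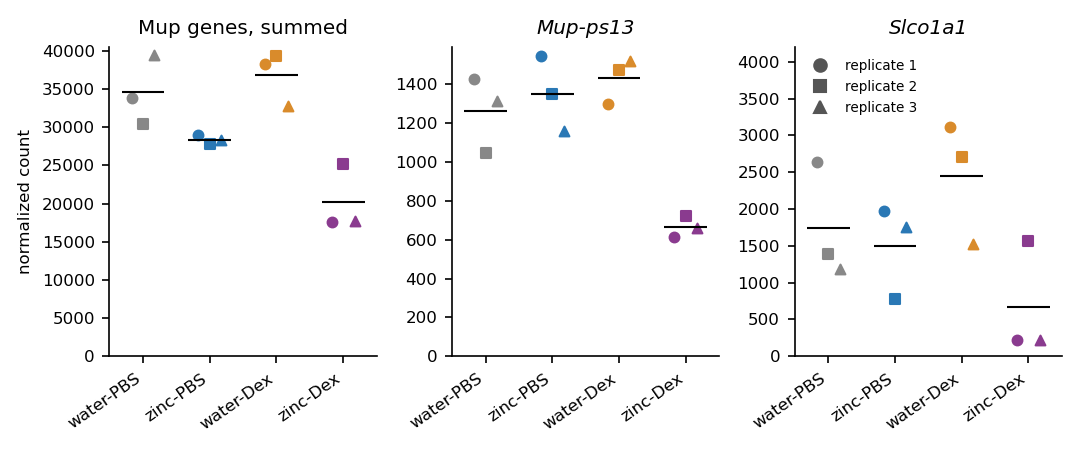
Normalized counts in the 12 mice, by group, of the listed Mup genes that passed the count filter, summed, of Mup-ps13 and of Slco1a1, each axis starting at 0, with symbols for the replicate numbers and a bar at the mean of 3 mice. In zinc-Dex the Mup sum was 17592, 25155 and 17685 and Slco1a1 218, 1568 and 222, with replicate 2 above the others, whereas Mup-ps13 was at 613 to 723 in all 3 mice. Most of the Mup sum was Mup3, with 13352, 20916 and 13352 in zinc-Dex.

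Few genes of the Dex response had a called interaction. Averaged over water and zinc, the Dex effect was called in 1608 genes (12.1%), 753 higher and 855 lower, and this averaged contrast is orthogonal to the log-scale interaction in the balanced design. Among the 753 genes higher with Dex, 457 had a positive and 296 a negative interaction, with a median of 0.084 (range without single libraries and over the other alternatives 0.039 to 0.160). At an unadjusted p under 0.05 there were 51 positive and 20 negative on the log scale, together 9.43% against 3.47% of all genes, and 3 were called, *Mt1*, *Mt2* and *Slc25a25*. Among the 855 genes lower with Dex, 412 were positive and 443 negative, with a median of -0.023, 18 positive and 34 negative at that p, and 2 called, *Phlda1* and *Fam198a*. The 95% interval lay inside -1 to 1 for 56.3% of the former and 34.0% of the latter.

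Glucocorticoid receptor targets gave 0 calls of 18 by DESeq2 or edgeR, where 0.0453% of all genes were called on the log scale. Averaged over water and zinc mice 17 of the 18 changed with Dex, their median interaction was 0.099, and 1 (5.56%) had an unadjusted p under 0.05, close to the 3.47% of all genes. That gene was *Tat*, tyrosine aminotransferase, with 7893, 8466 and 12253 counts in water-PBS, 8217, 6399 and 6179 in zinc-PBS, 62557, 64043 and 61590 in water-Dex mice and 84172, 69843 and 65106 in zinc-Dex. Zinc-Dex mice were above water-Dex mice, and the PBS groups overlapped. Its interaction was 0.68 (SE 0.229, 95% interval 0.23 to 1.13, DESeq2 adjusted p = 0.793). *Tdo2*, tryptophan dioxygenase, rose with Dex by log2 1.62 in both water and zinc mice, with an interaction of -0.003 (95% interval -0.41 to 0.41). The errors were larger for *Pck1*, the gene of the gluconeogenic enzyme PEPCK (0.75, SE 0.619), *Errfi1*, the gene of an epidermal growth factor receptor inhibitor (0.27, SE 0.478), and *Igfbp1*, an IGF-binding protein gene (1.25, SE 1.306). Of the 18 targets, 7 had an interval inside -1 to 1.

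Genes of drug metabolism, the targets of the receptors CAR and PXR, showed 3 positive and 0 negative interactions at an unadjusted DESeq2 p under 0.05 among 15 tested, *Cyp2b10*, *Cyp2c55* (0.73, SE 0.365) and *Cyp3a25* (0.41, SE 0.173), with a median of 0.090 and no call. Of all genes 3.47% passed at that p (1.9% positive), and the count of the list ranged from 1, with replicate 3 of zinc-PBS or replicate 1 of water-Dex left out, to 4. *Cyp2b10*, the classical CAR target, had means of 386 ± 97.7 in water-PBS, 195 ± 44.6 in zinc-PBS, 6187 ± 726 in water-Dex mice and 6648 ± 1874 in zinc-Dex. Zinc-PBS mice were below water-PBS mice, the Dex groups overlapped, and the interaction was 1.09 (SE 0.299, DESeq2 adjusted p = 0.196). *Mfsd2a*, which encodes a transporter of lysophosphatidylcholine, had 509 ± 102, 304 ± 85.4, 2358 ± 370 and 2881 ± 125 in the same order of groups, with zinc-Dex mice above water-Dex mice, and an interaction of 1.03 (SE 0.264, adjusted p = 0.103). *Slc25a25*, *Cyp2b10* and *Mfsd2a* all rose with Dex, and in each of them every zinc-PBS mouse was below every water-PBS mouse.

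Genes of glucose and glycogen metabolism had positive values in 13 of 16, with a median of 0.26 (0.193 to 0.446 over the alternatives) with 0 calls by DESeq2 on either scale, 0 by edgeR on the log scale and 1 by edgeR on the count scale, *Ppp1r3g*. At an unadjusted p under 0.05 on the log scale there were 3 positive (1.9% of all genes), *Ppp1r3c* (0.78, SE 0.273) and *Ppp1r3g* (1.68, SE 0.632), glycogen-targeting subunits of protein phosphatase 1, and *G6pc* (0.95, SE 0.479), glucose-6-phosphatase. *Ppp1r3c* had means of 1203, 667, 3062 and 2912 in water-PBS, zinc-PBS, water-Dex and then zinc-Dex, with zinc-PBS below water-PBS and the Dex groups overlapping. Dropping single libraries gave 2 to 6 positive genes at that p, with 6 when water-PBS replicate 3 was left out and 5 for zinc-PBS replicate 1. *Pfkfb3*, which makes the glycolytic activator fructose-2,6-bisphosphate, had a negative value at that p (-0.48, SE 0.227). *Pfkfb3* had 677, 714 and 757 counts in water-Dex mice and 406, 519 and 472 in zinc-Dex, against 104 to 172 in the PBS mice.

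Most inflammatory genes had negative values on the log scale, and for the NF-κB genes the list median depended on 1 mouse. Of 15 NF-κB and chemokine genes 13 had a negative interaction, with a median of -1.23. At an unadjusted DESeq2 p under 0.05 there were 4 negative and 0 positive, *Cxcl1*, *Cxcl10*, *Tnfaip3* and *Icam1*, or 26.7% of the list against 3.47% of all genes, but 0 by edgeR. *Cxcl1*, a neutrophil-attracting chemokine gene, had 3031, 50.9 and 163 counts in zinc-PBS and 47.5 to 70.2 in water-PBS. *Tnfaip3*, the gene of the NF-κB inhibitor A20, had 728, 44.7 and 81.5 in zinc-PBS and 36.5 to 46.4 in water-PBS. Zinc-PBS replicate 1 was far above all other mice in both genes. Without it the median of the list was -0.04, with 1 positive and 0 negative at that p, and leaving out any 1 of the other libraries gave 1 to 7 negative genes, the 7 for zinc-PBS replicate 2. Summed neutrophil marker counts were 28.9 to 117 in zinc-PBS and 29.2 to 33.1 in water-PBS, and their part in the result was not tested. In both Dex groups *Cxcl1* was at 3.19 to 14.8.

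Acute phase genes had 5 negative and 0 positive interactions of 17 at an unadjusted p under 0.05 and 15 of 17 negative values, none called, with a median of -0.18 (-0.35 to -0.087 over the alternatives). The 5 genes, 29.4% of the list against 3.47% of all genes, were *Saa4*, *Saa3*, *Lbp*, *Hp* and *Apcs*. The number at that p was 2 when zinc-PBS replicate 1, water-PBS replicate 3 or water-Dex replicate 1 was left out, and 3 for replicate 2 of water-Dex or replicate 1 or 3 of zinc-Dex. *Saa3* had 161, 35.9 and 35.3 counts in zinc-PBS, and its interaction of -2.09 was -0.97 when replicate 1 of that group was dropped. *Saa4*, a constitutive serum amyloid A gene, had means of 1963 ± 192 in water-PBS, 2973 ± 1097 in zinc-PBS, 9476 ± 1391 in water-Dex mice and 7587 ± 1304 in zinc-Dex, with an interaction of -0.92 (SE 0.294, DESeq2 adjusted p = 0.610). The highest zinc-PBS mouse for *Saa4*, at 4194, was again replicate 1. *Lbp*, lipopolysaccharide-binding protein, had -0.49 (SE 0.184), and -0.39 without that library. Interferon-stimulated genes, 17 tested, had a median of 0.14 with 2 positive, *Ifit2* (0.56, SE 0.275) and *Ifit3* (0.53, SE 0.267), and 1 negative at that p, together 17.6% of the list. The positive number was 0 without replicate 2 of water-PBS or of zinc-PBS, without water-Dex replicate 1 and with the replicate number as a block. It was 3 without water-PBS replicate 3. The negative gene was *Bst2*, tetherin, with 1037, 1197 and 1088 counts in zinc-Dex, below the other 9 mice (1292 to 1575), and an interaction of -0.30 (SE 0.123). In 4 of the 17 genes, *Bst2* included, the zinc-Dex mice lay below the other 9 mice, against 2.52% of all genes. They lay above them in 0 of the 17, against 3.55% of all genes. *Ifi27l2b*, an interferon-inducible gene outside the list, had 0.74 (SE 0.222) for zinc in Dex mice, -0.44 (SE 0.218) in PBS mice and an interaction of 1.18 (SE 0.311, adjusted p = 0.122).

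Some clock genes were called for zinc itself, in a list chosen with earlier results of these data known. Averaged over PBS and Dex mice, 6 of 17 clock genes were called for zinc, *Tef*, *Dbp* and *Per3* higher and *Arntl*, *Npas2* and *Cry1* lower, against 0.332% of all genes. Their zinc effects had the same sign in both injection groups, for *Arntl* log2 -0.92 and -1.28 and for *Tef* 0.72 and 0.89. None of the 6 had an interaction at an unadjusted p under 0.05, and the intervals were wide, from -1.15 to 0.43 for *Arntl*. The 1 clock gene at that p was *Nr1d1*, the gene of the repressor REV-ERB alpha (0.66, SE 0.263), with 211, 302 and 193 counts in water-Dex mice and 479, 377 and 353 in zinc-Dex against 890 to 1325 in PBS mice. *Thra* overlaps it on the opposite strand. Immediate early genes gave 0 calls and 0 genes at an unadjusted p under 0.05 by DESeq2 among 14, and *Myc* had -0.56 (95% interval -1.33 to 0.20). Their median of -0.09 was 0.32 when zinc-PBS replicate 1 was dropped, but -0.47 when this was done for water-PBS replicate 1.

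The genes changed by zinc as such were few. Averaged over PBS and Dex mice zinc was called in 44 genes (0.332%), 26 higher and 18 lower, and leaving out replicate 1 of water-PBS, zinc-PBS or zinc-Dex lowered this to 21, 22 and 24 genes. Of the higher genes 19 of 26, and of the lower genes 12 of 18, had the larger zinc effect in Dex mice, with median interactions of 0.47 and -0.24. Of these 44 genes, *Mt1*, *Mt2* and *Slc25a25* had a called interaction, each with the larger zinc effect in PBS mice. Zinc and Dex each raised *Mt1*, *Mt2* and *Gm45774* on average, and the interaction was negative in all 3 of them.

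*Bcorl1*, the gene of a BCL6 corepressor-like protein, had 23.9, 36.7 and 25.0 counts in zinc-Dex, below the other 9 mice (45.7 to 106.9), and an interaction of -1.25 (SE 0.331, DESeq2 adjusted p = 0.122). Total counts were 9091152 to 12303527 per library. Hepatocyte markers were high in all 12 mice, with summed counts of 1288650 to 1501960 in PBS mice and 1646450 to 1834640 in Dex mice. Of the 8 pancreas markers 5 were at 0 in every mouse and the sum was at most 11.1, and the adipose sum was at most 3.26. The gut epithelium sum was not near 0, at 603 to 982 over the 12 mice, and the 5 gut markers tested had a median interaction of -1.42. None of the 8 hepatocyte, 9 Kupffer cell, 6 sinusoidal endothelial, 5 stellate cell, 5 cholangiocyte, 5 red blood cell, 5 gut epithelium, 2 neutrophil and 1 lymphocyte markers tested had a log-scale interaction at an unadjusted DESeq2 p under 0.05. On the count scale 1 of them did, the gut epithelium marker *Vil1* (-13.3 counts, SE 5.47). In bulk liver, fewer cells of a type and less RNA per cell cannot be told apart.

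**Figure D5:**
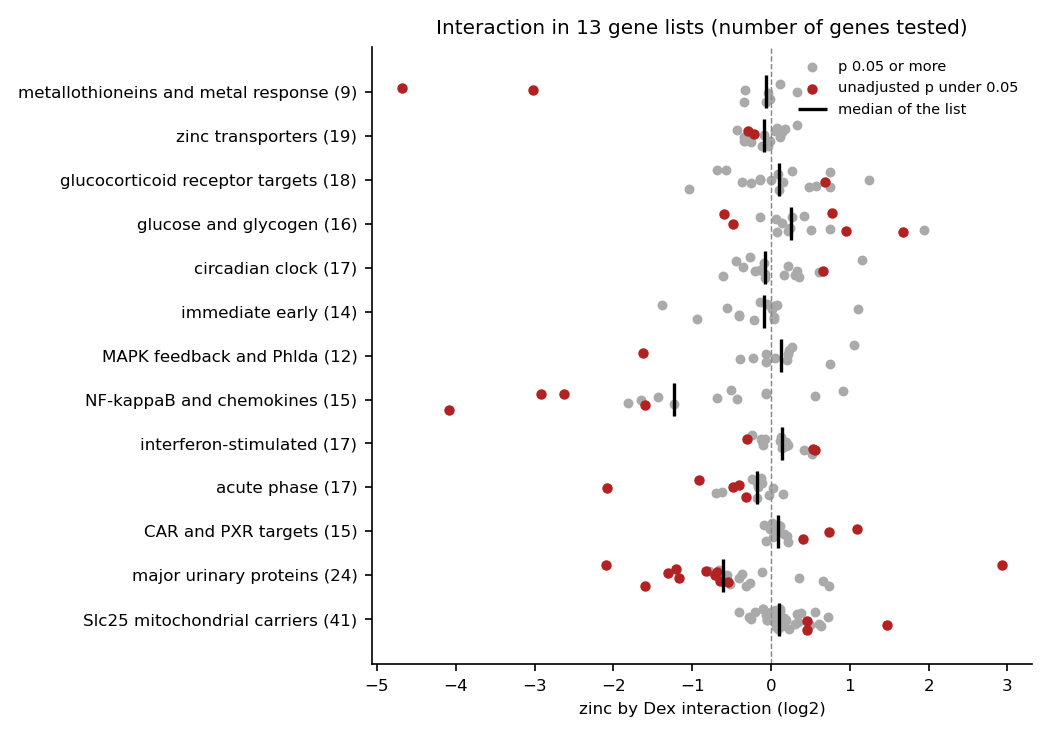
Log2 interaction of each tested member of 13 gene lists (points, horizontal axis), with the number of genes tested after the name of each list and a black bar at the median. Red points have an unadjusted DESeq2 p under 0.05. The NF-kappaB list has a median of -1.23, which was -0.04 without zinc-PBS replicate 1, and the Mup list a median of -0.61.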

How the data were processed

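RNA was sequenced with a stranded single-end protocol from 12 livers, 3 per group. The authors trimmed the reads, aligned them to mm10 with HISAT 2.0.4 and counted uniquely mapped reads per gene with featureCounts, and the deposited counts are raw and not normalized. Which gene annotation was used, and whether counting used strand, is not given in the sources used here. Gene symbols were matched to 54809 of 54838 identifiers.

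Groups were taken from the sample labels. Genes that reached 10 counts in 3 or more libraries were fitted with DESeq2 1.42.0 (R 4.3.3) with zinc, Dex and their interaction over all libraries, and Wald tests were adjusted by the Benjamini-Hochberg method over 13250 genes. 5 further genes had no p-value because of Cook's distance, among them *Saa1*, *Saa2* and *Mup7*. The count-scale difference of differences was tested with a Wald statistic whose error came from the DESeq2 dispersion, and its p-values were adjusted in the same way. All p-values quoted are two-sided. They rest on 3 separate mice per group.

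Named genes were every gene called on the log scale, up to 10 called on the count scale, the 5 in each direction with the smallest unadjusted p and a mean of at least 50 counts among those not called, the members of the metal response list, the 5 most abundant glucocorticoid receptor targets and, of each other list, the member with the smallest p. The members and lists were chosen with earlier results of these data known. Both tests were run on simulated data with known changes, and the outcome is not given here. The changes were placed only in genes with higher counts and low dispersion. That run therefore says nothing of how well changes are found in low-count or more variable genes. Alternatives were edgeR 4.0.16, limma 3.58.1 on the count scale, TMM factors, no gene filter, no Cook's distance filter, no fold threshold, the replicate number as a block and leaving out each library. Lists without each library, main-effect groups under other settings and the comparison of 1 group with the other 9 libraries were added after the data were seen. Figures were drawn with matplotlib 3.10.9. Results for some genes are not reported here.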

Additional observations from a re-analysis of the deposited data

Results flagged for a closer look

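By the test of the interaction itself, the zinc effect was called as different between PBS and Dex mice in 9 genes. On the log2 scale the difference was -3.02 for *Mt1*, -4.68 for *Mt2*, 1.48 for *Slc25a25*, -1.63 for *Phlda1*, 1.56 for *Fam198a* and -1.20 for *Mup-ps13*. On the scale of normalized counts it was -855 for *Mup-ps13*, -323 for *Phlda1*, 1045 for *Amacr*, -178 for *Cd9* and -148 for *Zeb1*. For *Mt1*, *Mt2*, *Slc25a25* and *Fam198a* the count-scale difference was not called, and for *Amacr*, *Cd9* and *Zeb1* the log-scale one was not. The log-scale calls of *Fam198a* and *Phlda1* were lost in 11 and 7 of 17 alternatives, and that of *Slc25a25* in 1. The count-scale calls of *Cd9* and *Zeb1* were each lost in 12 of 18.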

How the results depend on the processing

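The log-scale test called 6 genes, and edgeR called 3 (*Mt1*, *Mt2* and *Mup-ps13*), while leaving out 1 library gave 4 to 22. The count-scale test called 5, against 8 with edgeR, 3 with no gene filter and 37 with limma, and 3 to 15 without 1 library. The zinc effect averaged over injections was called in 44 genes, in 24 with edgeR, in 300 with no fold threshold and in 21 to 66 without 1 library, and the Dex effect in 1608, in 4960 with no fold threshold and in 1544 to 1602 without 1 library. The causes were not tested, apart from the dropped threshold. With the replicate number as a block (replicate block), 7 genes were called on the log scale, 5 of them shared, and 4 on the count scale, 3 of them shared. The 18 same-numbered pairs of libraries had correlations of -0.20 to 0.19 (median 0.026), and the 36 other pairs -0.24 to 0.28 (median 0.018). Of 12 libraries, 2 correlated best with their own number. These values showed no pairing by replicate number, but with 3 libraries per group they cannot exclude it. Of 757 single-gene values under an alternative, 681 kept their direction and side of the threshold, 43 lost and 14 gained a call, and 19 changed sign, in 6 genes none of which was called. Without 1 library the interaction ranged from -0.025 to 0.23 for *Slc30a1*, -0.15 to 0.012 for *Mtf1*, -0.12 to 0.070 for *Slc39a14*, -0.15 to 0.096 for *Slc39a4*, -0.15 to 0.086 for *Tdo2* (0.0014 with the replicate block) and -0.12 to 0.58 for *Errfi1*. With 3 mice per group and 9091152 to 12303527 counts per library, the 95% interval reached a median of 0.471 to either side on the log2 scale.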
